A study of Mus musculus with 8 samples.

Results

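Slc38a4, Sfmbt2, Gab1, Jade1 and Smoc1 are genes that the early mouse embryo imprints through a histone mark, H3K27me3, on the maternal copy. They were taken by symbol from the deposited RNA-seq table of mouse embryonic stem cells (mESCs), where each of the 5 had exactly 1 row among 19429 genes. They were chosen by name, with the differences between WT and D2018A that had been computed from these data already known, so nothing in their levels is evidence for the choice. The libraries described came from LF2 mESCs grown with LIF, in which both copies of Tet1 carried a C-terminal FLAG tag. Wild-type lines 2 and 5 (WT) and lines 7 and 8 with the TET1 mutation D2018A, which weakens the binding of TET1 to the O-GlcNAc transferase OGT, were each sequenced as 2 technical replicates, giving 4 WT and 4 D2018A libraries. Each line was grown from a single cell, so a genotype is represented by 2 clones among the libraries described. The study's methods also describe a large deletion that the WT cells had and the D2018A cells lacked.

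In classical imprinting a methylated control region inherited from egg or sperm silences 1 parental copy of a gene. In noncanonical imprinting the egg instead marks the maternal copy with H3K27me3, the histone mark written by Polycomb repressive complex 2 (PRC2), and the paternal copy is expressed. This form is largely lost in the embryo proper and persists in the placental lineages, where the 5 genes studied here are known for paternal expression. mESCs derive from the embryo proper. TET1, which oxidises 5-methylcytosine, and PRC2 both act at CpG-rich promoters in these cells.

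The deposited values were 1 mean normalised count per gene over all libraries of the authors' fit. No value per library or per genotype was used, so the levels below have no standard deviation and no replicate check, and WT was not compared with D2018A. The smallest means fell on 12 steps of a single read in a single library, each shared by 38 to 123 genes, so the means covered 12 libraries, 4 more than the 8 described. The relative depth of these libraries (size factor) ran from 0.726 to 1.47. All levels therefore describe the cell lines of the fit together, and a lower level can reflect fewer expressing cells or less RNA per cell, which bulk RNA cannot tell apart.

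All 7 pluripotency markers examined lay in the highest 25% of genes, from 520 normalised counts per kilobase (kb) of exon for Zfp42 to 3817 for Esrrb. Of 8 trophoblast markers, 2 (Tpbpa and Prl3d1) had no row, and the other 6 ran from 0.192 for Elf5 to 47.8 for Eomes, with the defining gene Cdx2 at 0.659. Their summed level was 61.6, against 12691 for pluripotency. The 6 primitive endoderm markers summed to 143, led by Sox7 at 100.2 and lowest for Pdgfra at 1.57. Of 6 fibroblast markers Dcn and Lum had no row, Col3a1 was at 0.00948 and Thy1 was the highest at 64.8, for a sum of 82.4. The Col3a1 mean of 0.0930 equals a step of a single read in a single library. Of the trophoblast markers only Eomes was above the median gene, and of the primitive endoderm markers Sox7 and Gata4 (19.7). Of the fibroblast markers Thy1 and Col1a1 (17.5) were above it.

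The sequence of 3 promoters is given first, because the genes differed in a feature that TET1 and PRC2 are both known to follow, the CpG dinucleotide. Each is the 250 bases upstream of the gene's most upstream RefSeq start site (build GRCm38.p6), with every CpG in capitals.
Slc38a4, chr15:97055957-97056206, minus strand: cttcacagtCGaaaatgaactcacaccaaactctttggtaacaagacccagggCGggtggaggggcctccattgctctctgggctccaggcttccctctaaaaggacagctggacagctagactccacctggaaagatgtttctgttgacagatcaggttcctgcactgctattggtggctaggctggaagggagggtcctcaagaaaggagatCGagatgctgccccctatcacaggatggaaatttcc
Sfmbt2, chr2:10370201-10370450, plus strand: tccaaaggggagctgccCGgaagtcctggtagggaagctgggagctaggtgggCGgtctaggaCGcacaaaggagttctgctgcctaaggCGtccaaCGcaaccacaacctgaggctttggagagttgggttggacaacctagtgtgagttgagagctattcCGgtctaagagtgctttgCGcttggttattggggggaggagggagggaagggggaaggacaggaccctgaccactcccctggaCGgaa
Gab1, chr8:80880520-80880769, minus strand: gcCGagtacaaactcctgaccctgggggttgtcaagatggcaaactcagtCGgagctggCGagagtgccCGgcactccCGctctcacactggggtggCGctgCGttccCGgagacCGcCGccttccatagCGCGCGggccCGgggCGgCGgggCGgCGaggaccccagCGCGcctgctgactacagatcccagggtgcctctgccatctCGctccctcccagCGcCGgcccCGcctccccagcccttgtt
The Slc38a4 stretch held 3 CpGs, the Sfmbt2 stretch 8 and the Gab1 stretch 24. No annotated exon covered the first 2 of these stretches, while that of Gab1 overlapped an exon of the antisense gene Gm31105. Not shown are the stretches before the more downstream Slc38a4 starts, with 5 and 5 CpGs, and before the downstream Sfmbt2 start, with 15. Also not shown are that before the downstream Gab1 start, with 25, and those before the Jade1 starts, with 16, 6, 35 and 18. For each of the 3 genes the stretch shown thus held the fewest CpGs among its own. Which start sites these cells use, and whether TET1 or PRC2 binds there, was not measured.

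Gab1 was the most abundant of the 5 genes by a wide margin. GAB1 is a docking adaptor that carries signals from receptor tyrosine kinases to the phosphatase SHP2 and to PI3-kinase. Gab1 (ENSMUSG00000031714, chromosome 8, 80764438 to 80880519, minus strand) had a mean of 16753 normalised counts over the fit. Divided by its 5082 bases of merged exons this was 3297 counts per kb, 193 times the median gene (17.1 per kb) and rank 70 of 19351 genes with a known exon length. Among the pluripotency markers only Esrrb was higher. Gab1 exons share 266 bases, or 5.23%, with Gm31105 on the other strand, a gene that had no row. Whether reads were counted by strand is not given in the sources used here, so counts from those bases may belong to either gene.

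Sfmbt2 followed. SFMBT2 is an MBT-repeat Polycomb protein with a role in the trophoblast. Sfmbt2 (ENSMUSG00000061186, chromosome 2, 10370510 to 10595253, plus strand) had a mean of 3135 normalised counts and a level of 343 per kb, above 92.4% of genes. Its introns hold 119 annotated miRNA genes, a large cluster best known from placental tissue. None of them overlaps a Sfmbt2 exon, and the deposited table has 0 rows of the miRNA class, so no level can be given for them. How reads from these miRNA genes were assigned was not checked.

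Jade1 and Slc38a4 came next in level. JADE1 is a PHD finger protein that directs the histone acetyltransferase HBO1. Jade1 (ENSMUSG00000025764, chromosome 3, 41555731 to 41616864, plus strand) had a mean of 1858 normalised counts and 219 per kb, above 88.0% of genes. Jade1 exons share 290 bases, or 3.41%, with the antisense gene Gm31266, which had no row either. Counts from those bases may also belong to either gene. SLC38A4 is a sodium-coupled transporter of neutral amino acids that is prominent in liver and placenta. Slc38a4 (ENSMUSG00000022464, chromosome 15, 96994823 to 97055956, minus strand) had a mean of 739 normalised counts and 174 per kb, above 85.0% of genes. The ratio of Jade1 to Slc38a4 was 1.26 with merged exons and 1.77 with the longest transcript of each gene, so the size of this gap depends on which of the 14 annotated Jade1 transcripts are used.

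Smoc1 was the lowest of the 5. SMOC1 is a secreted calcium-binding matrix protein that modulates BMP signalling. Smoc1 (ENSMUSG00000021136, chromosome 12, 81026808 to 81186414, plus strand) had a mean of 225 normalised counts and 64.3 per kb, 3.76 times the median gene and above 69.6% of genes. The median depends on how many genes with few reads are counted: among genes with a mean of 10 or more it was 53.8 per kb, which puts Smoc1 at 1.2 times and Gab1 at 61.3 times the median. All 5 genes were above either median and 4, all but Smoc1, were in the highest 25% (above 88.8 per kb). From Gab1 to Smoc1 the level spanned 51.3-fold. Neighbours in this order differed 9.60-fold (Gab1 over Sfmbt2), 1.57-fold (Sfmbt2 over Jade1), 1.26-fold (Jade1 over Slc38a4) and 2.70-fold (Slc38a4 over Smoc1). With no spread between libraries it could not be judged which of these gaps exceed replicate error. The order itself was the same with the longest transcript and with the coding length as divisor.

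**Figure D1:**
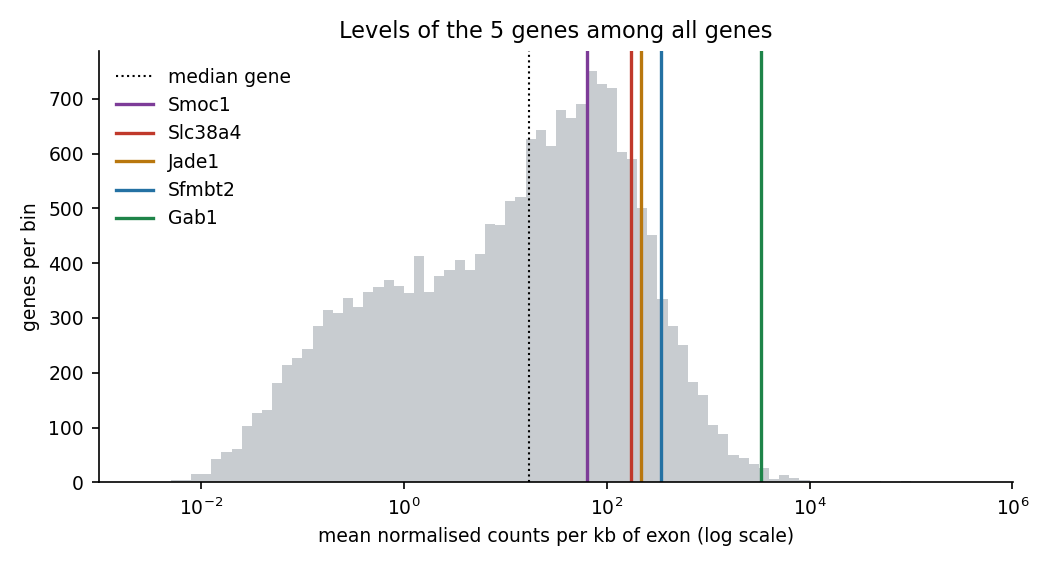
Distribution of mean normalised counts per kb of exon over 19351 genes (grey bars, log axis), with 1 coloured line for each gene and a dotted line at the median gene (17.1). Smoc1 (64.3), Slc38a4 (174), Jade1 (219) and Sfmbt2 (343) lie above the median and Gab1 (3297) in its far tail.

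The 5 genes were next set beside their closest relatives and known partners. Of 10 other SLC38 amino acid transporter genes, 9 were in the table, all at a mean of at least 10 normalised counts. Slc38a7 (578 per kb), Slc38a2 (356), Slc38a1 (235) and Slc38a10 (227) were above Slc38a4. Slc38a5 was at 81.0 and Slc38a3, Slc38a6, Slc38a9 and Slc38a8 ran from 14.4 down to 2.91. Slc38a11 had no row. Slc38a4 was thus below 4 of its paralogs, and was at 0.487 of the level of Slc38a2, the general system A transporter.

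For the other genes the member was mostly the leading paralog. Gab2 (1.00 per kb) and Gab3 (11.3) were both below the median gene, so Gab1 was 292 times its next relative. Among the partners of GAB1, the adaptor gene Grb2 was at 289 per kb, Ptpn11, which encodes SHP2, at 88.1, and the PI3-kinase subunit genes Pik3ca and Pik3r1 at 34.9 and 23.4. The receptor gene Met, whose product GAB1 binds, was at 7.74. No partner came within 11-fold of Gab1, the nearest being Grb2 at a ratio of 11.4.

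Sfmbt2 was 16.1 times its nearest homolog Sfmbt1 (21.3 per kb). Of the other MBT-repeat genes L3mbtl2 was at 193, Mbtd1 at 27.6, L3mbtl1 at 9.51 and L3mbtl3 at 8.42, and L3mbtl4 had no row. Rnf2, the ubiquitin ligase of PRC1, was at 262 per kb, its homolog Ring1 at 33.9 and Yy1, a DNA-binding partner of MBT proteins, at 52.8.

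Jade1 was 2.31 times Jade2 (94.8 per kb) and 2.70 times Jade3 (81.0). All 4 partner genes of its acetyltransferase complex were above the median gene. Kat7, which encodes HBO1, was at 799 per kb, Meaf6 at 148, Ing5 at 103 and Ing4 at 70.4. Smoc1 was 461 times Smoc2, which was at 0.140 per kb with a mean of 0.970 normalised counts. The matrix gene Sparc was far higher at 1183 and Sparcl1 lower at 1.12.

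**Figure D2:**
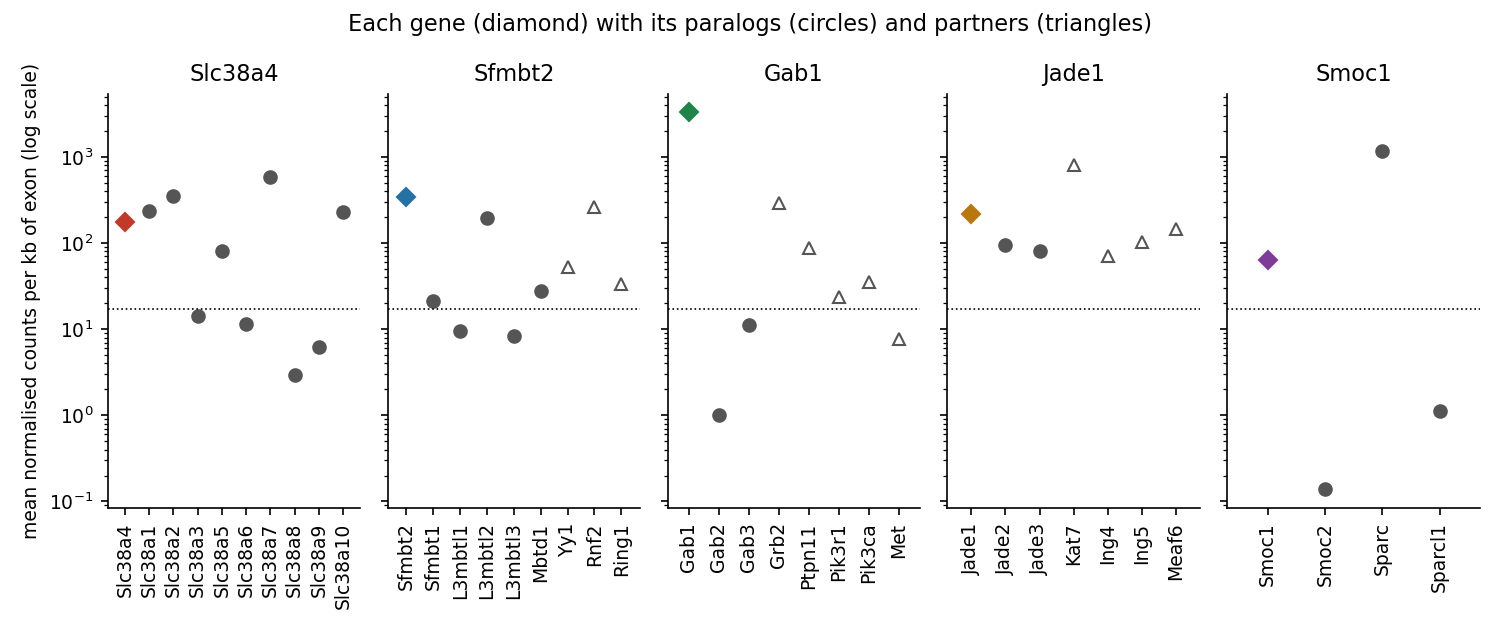
Mean normalised counts per kb of exon (log axis) for each gene (coloured diamond), its paralogs (circles) and its partners (open triangles), with the median gene dotted at 17.1. Gab1, Sfmbt2 and Jade1 top their own paralogs, Slc38a4 lies below Slc38a7, Slc38a2, Slc38a1 and Slc38a10, and Smoc1 lies below Sparc.

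The machinery of the mark was expressed throughout. All 11 PRC2 genes were above the median of all genes (10 of them, all but Aebp2, also above 53.8), with 8 in the highest 25%. Of the core, Eed was at 263 per kb, the methyltransferase genes Ezh2 and Ezh1 at 104 and 96.4, Suz12 at 71.8, and the histone-binding subunit genes Rbbp4 and Rbbp7 at 1266 and 207. Jarid2, which helps bring PRC2 to its targets, was at 928, Mtf2 at 204, Phf19 at 94.5, Phf1 at 64.2 and Aebp2 at 34.4. The H3K27 demethylase genes Kdm6a (307) and Kdm6b (120) were both in the highest 25%.

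Classical imprinted genes had a lower median level than these 5 genes. Of 35 examined, 34 had a row, 31 a mean of at least 10 normalised counts, and 25 were above the median of all genes. Their median was 52.9 per kb, against 219 for the 5 genes, 17.1 for all genes and 53.8 for genes with a mean of 10 or more. The highest were Peg10 (715), Mest (645) and Meg3 (359). The lowest with a mean of at least 10 were Zim1 (1.38), Usp29 (1.54) and Magel2 (2.73). Of the 34, 7 were above Slc38a4, 14 above Smoc1 and 0 above Gab1. The 5 genes were chosen with results of these data known, so the difference in medians is a description and was not tested.

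**Figure D3:**
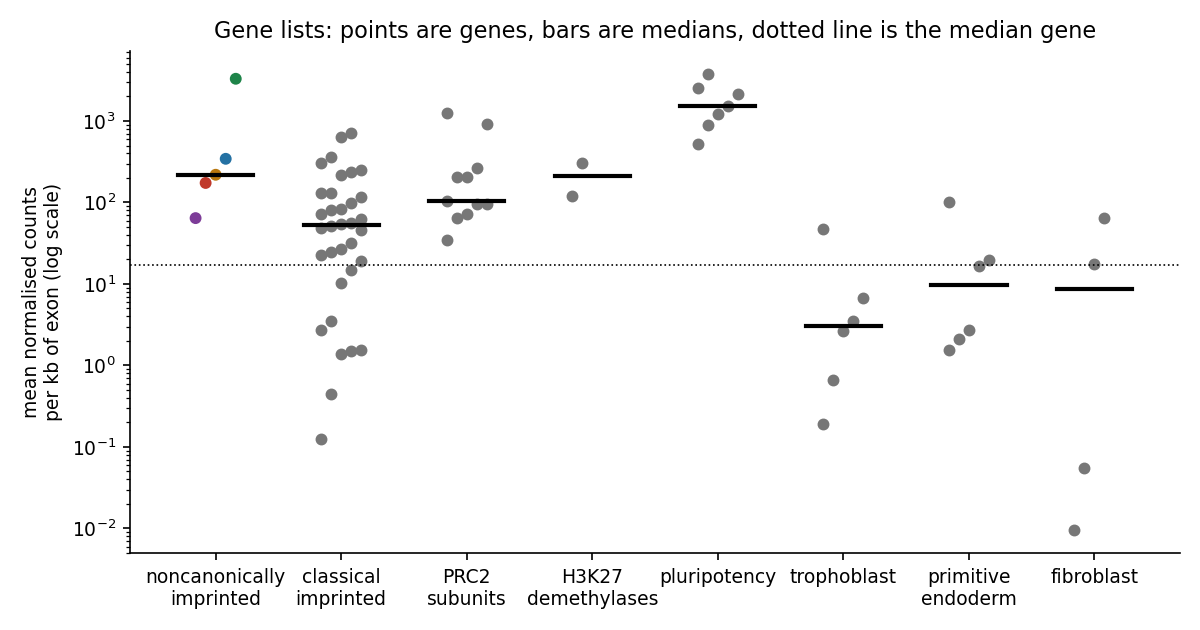
Mean normalised counts per kb of exon (log axis) for 8 gene lists, where each point is a gene, each bar the median of its list and the dotted line the median of all genes. The medians were 219 for the 5 genes, 52.9 for classical imprinted genes, 104 for PRC2 subunits, 1527 for pluripotency markers and 3.07 for trophoblast markers.

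The surroundings of each gene were examined because imprinted domains can span several genes. Around Gab1, 0 of 6 neighbours whose start lay within 500 kb were higher. Its nearest protein-coding neighbours were Smarca5 (24.8 per kb, a gap of 24.9 kb) and Usp38 (143 per kb, 100.2 kb), and Gab1 was 133 and 23.1 times their level. Jade1 also exceeded all 8 neighbours in its window. Sclt1, 9.86 kb away, was at 11.0 per kb and Pgrmc2, on the other side, at 70.9. The nearest upstream row, the non-coding 2400006E01Rik, started 27.3 kb before Jade1 and was at 130 per kb, and Platr4, another non-coding gene, was at 58.4.

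Sfmbt2 lay between genes with few reads. Itih5 was at 0.429 and Prkcq at 0.256 per kb, and Sfmbt2 was 801 and 1340 times their levels. Within 500 kb 1 of 6 neighbours was higher, Atp5c1, an ATP synthase gene, at 756. Smoc1 was followed by Slc8a3 at 0.511 per kb and preceded by the splicing factor gene Srsf5 at 69.9, which was at a level close to its own. Of its 13 neighbours 3 were higher.

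Slc38a4 had 3 higher genes among 5 neighbours, including both of its paralogs on that chromosome. Slc38a2 and Slc38a1 started 356 and 413 kb downstream of the Slc38a4 start. The third was Pced1b at 913 per kb. By the gap between gene bodies the nearest protein-coding rows were Gm8888, a predicted gene, at 0.246 and Amigo2 at 10.6 per kb. The Gm8888 mean of 0.0771 equals a step of a single read in a single library. Counted from the Slc38a4 start, with negative values upstream, Pced1b started at -191.2 kb and Amigo2 at -191.3 kb.

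**Figure D4:**
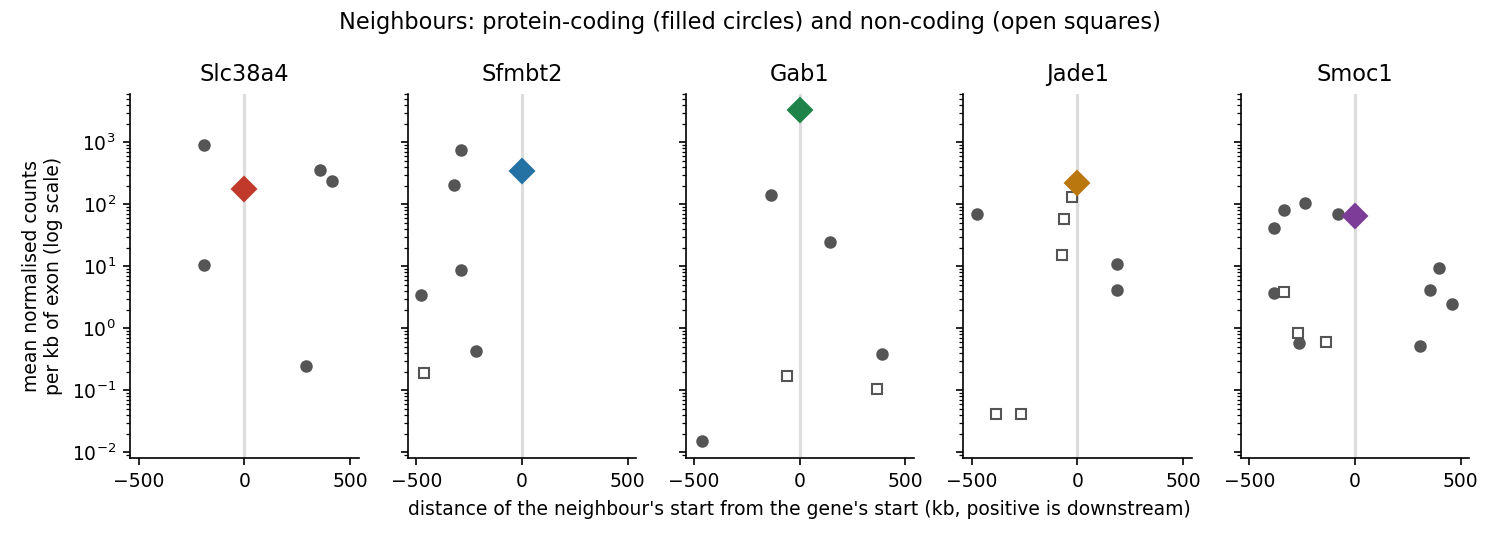
Mean normalised counts per kb of exon (log axis) against the distance in kb of each neighbour's start from the start of the gene, within 500 kb, with the gene as a coloured diamond, protein-coding neighbours as circles and non-coding ones as open squares. Gab1 and Jade1 lie above every neighbour shown, while 3 of 5 neighbours lie above Slc38a4.

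Among features that did not enter the choice of genes, all 5 were long. Their spans ran from 61.1 kb (Slc38a4 and Jade1) to 225 kb (Sfmbt2), against a median of 21.8 kb for protein-coding genes, and each was above at least 77.7% of those genes. Exon length ran from 3496 bases for Smoc1, which is above 41.5% of those genes, to 9128 for Sfmbt2, against a median of 4087. Introns made up 86.1% of Jade1 and between 93.0% and 97.8% of the other 4. Annotated start sites numbered 5 for Slc38a4, 6 for Sfmbt2, 3 for Gab1, 14 for Jade1 and 2 for Smoc1. Of the 50-base stretches in their transcripts, 4.29% for Gab1 and 2.23% for Jade1 also occurred in transcripts of other genes, on either strand, and 0% for Slc38a4, Sfmbt2 and Smoc1. These shares count positions and not reads, so the part of each value that they concern was not measured. The antisense overlaps of Gab1 and Jade1 given above were not separated from these shares.

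Promoters differed in CpG content. The motif CG, which reads the same on both strands, was counted from 250 bases before to 50 after each of 32851 RefSeq start sites, and the observed count was divided by that expected from the C and G content. These start sites belong to 27025 gene symbols, some with many closely spaced starts, and were not limited to protein-coding genes. The median promoter of this set held 7 CpGs at a ratio of 0.384. The 3 Slc38a4 promoters held 5 CpGs each, a number that 62.0% of all promoters reach or exceed, with ratios of 0.238, 0.306 and 0.335. Both Gab1 promoters were CpG-rich, with 26 and 28 CpGs (16.9% and 14.2% of promoters hold at least as many) and ratios of 0.750 and 0.784. Their windows (80880470 to 80880769 and 80880430 to 80880729) overlap for most of their length, so they share most of their sequence. The Jade1 promoters held 18, 14, 38 and 25, and the third of these, at a ratio of 1.21, exceeded 99.6% of promoters. The upstream Sfmbt2 promoter held 9 at a ratio of 0.392 and the downstream one 16 at 0.748. Slc38a4 was the gene whose promoters all lay below the median ratio, and the 8 promoters of Sfmbt2, Gab1 and Jade1 all lay above it. Both overlapping Gab1 windows are counted among these 8. The lowest of the 8 were the upstream Sfmbt2 promoter (0.392) and the second Jade1 promoter (0.443). They exceeded 50.7% and 54.3% of promoters, which is close to the median. Smoc1 was not in the promoter table.

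**Figure D5:**
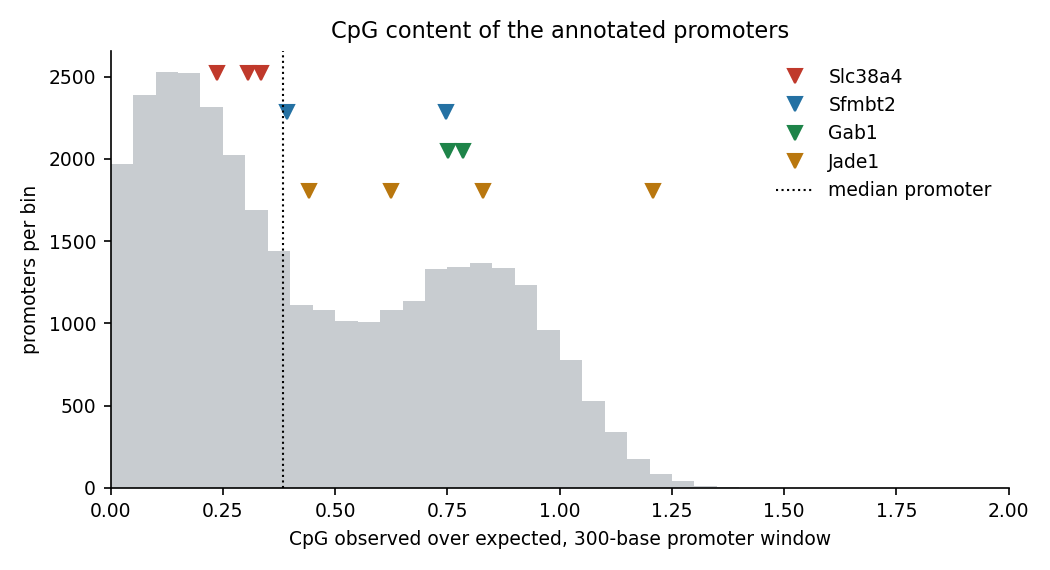
Observed over expected CpG in 300-base windows around 32851 RefSeq start sites (grey bars), with triangles for the promoters of Slc38a4, Sfmbt2, Gab1 and Jade1 and a dotted line at the median (0.384). The 3 Slc38a4 promoters (0.238 to 0.335) lie left of the line and the other 8 right of it. Of the 8, those of Gab1 come from overlapping windows.

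Slc38a4 was also measured by qPCR in the study, and the primers are shown because they define which Slc38a4 transcripts that assay can see.
Slc38a4 forward: gccaaggaaggagggtctc
Slc38a4 reverse: ggctccaatgttctgcattg
In transcript sequences of GRCm38 both primers lie in the coding sequence and each spans an exon junction of the transcript that starts farthest upstream. The forward primer has 13 bases in exon 5 (chromosome 15, 97013438 to 97013450) and 6 in exon 6 (97012987 to 97012992). The reverse primer has 18 bases in exon 6 (97012900 to 97012917) and 2 in exon 7 (97010364 to 97010365). The product is 108 bases. Of the 5 annotated Slc38a4 transcripts 4 contain both sites, whichever start site they use, and 1 short transcript contains only the forward site. Transcripts of other genes with both sites numbered 0.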

How the data were processed

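Per the labels and the study's methods, RNA depleted of ribosomal RNA was sequenced as single-end reads of 50 bases, and the submitters' processing notes name STAR 2.5.3a, DESeq2 1.20.0 and GRCm38.p6. The deposited table gives, as the authors' mean, a signal per gene: counts divided by a size factor per library and averaged over the fit. It covers 19429 genes and sums to 10937569. Its other value columns hold the authors' own comparison of D2018A with WT (log2 fold change, its standard error, statistic, p-value and adjusted p-value) and were not used. It names no sample in any column.

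Means were divided by merged exon length from GENCODE vM21 (GRCm38), found for 19351 genes. Of these, 17554 had the same start and end in both sources. Gene coordinates are those of the deposited table. No test was run. Library number was read from single-read steps of at least 30 genes that are not sums of lower steps, a procedure tested on simulated data. Promoters are from RefSeq (GRCm38.p6), with 4 of the 5 genes matched, and primers from the study's primer list. Named were the 5 genes, all paralogs, partners, PRC2 subunits and H3K27 demethylases listed, the nearest protein-coding row on either side of each gene, the 3 highest and 3 lowest classical imprinted genes (mean of 10 or more), and the highest and lowest of each marker list. Other named genes (neighbours within 500 kb, overlapping genes, defining markers and markers above the median gene) were chosen after their values were seen. The members and lists were chosen with earlier results of these data known. Python 3.11.15, pandas 2.3.3 and scipy 1.17.1 were used.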

Additional observations from a re-analysis of the deposited data

Results flagged for a closer look

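The deposited means carried the signal of 4 libraries that no sample of the series describes: 12 single-read steps were found where 8 libraries are listed. Which cells these 4 libraries came from was not analysed here, and their share in the levels of the 5 genes was not tested.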

How the results depend on the processing

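No paired analysis was possible because the deposited means hold no value per library, and for the same reason no replicate could be left out. The number of libraries was 12 with at least 20 genes per step as well. With the longest transcript in place of merged exons the level per kb was 188 for Slc38a4, 398 for Sfmbt2, 3361 for Gab1 and 333 for Jade1, and the share of genes below was 82.0% for Slc38a4, 90.9% for Sfmbt2, 99.5% for Gab1, 89.3% for Jade1 and 65.1% for Smoc1. When only genes with means of 10 or more were compared, these shares were 77.5%, 88.5%, 99.5%, 81.9% and 54.2%, lower for all 5 because fewer low genes are counted. Among protein-coding genes they were 83.1% for Slc38a4, 91.4% for Sfmbt2, 86.4% for Jade1 and 65.7% for Smoc1. With coding length among protein-coding genes, chosen after the data were seen, they were 80.8%, 91.5%, 99.5% and 62.2% for Slc38a4, Sfmbt2, Gab1 and Smoc1. Against the median of genes with means of 10 or more the level was 3.23 times for Slc38a4, 6.39 for Sfmbt2, 61.3 for Gab1, 4.07 for Jade1 and 1.2 for Smoc1, also chosen after the data were seen. Each of the 5 genes stayed above the median gene under these settings, and none of the ratios between neighbours in their order reversed. The CpG count in a window of 500 bases on either side of the start was not run, since the promoter sequences end at 250 bases before and 50 after it. Means over 12 libraries of unequal depth limit precision by an amount that is unknown here.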
